A study of Homo sapiens with 6 samples.

Results

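The genes of the proteasome were compared between control and KCa3.1 silenced cells of Huh7, an established cell line from a human liver cancer. The members were all genes whose platform symbol begins with PSMA to PSMG and a number, taken from probe sets with 1 symbol. The rule found 46 of the 18132 measured genes. Of these, 44 belong to the proteasome, its activators or its assembly factors. The other 2, PSMC3IP and PSME3IP1, only share the start of the symbol and are no subunits. PSMA6, PSMC5, PSMD7 and PSMD13 are not analysed here.

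Of the 6 expression arrays, 3 were from control cells and 3 from cells labelled as silenced for KCa3.1, the calcium-activated potassium channel encoded by KCNN4. All cells were Huh7 in logarithmic growth, and the labels do not say how the channel was silenced or whether the control cells received a control construct. Whether the replicates were grown as separate cultures is not stated, and every p-value below reflects the spread among these arrays alone, which may be technical. The values are RMA values on the log2 scale, centred near 0 for each probe set, so they carry no expression level, and a check of liver or other cell type markers as present or absent could not be made.

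KCNN4 itself was not lower in the arrays labelled silenced. It measured -0.006, 0.126 and -0.073 on the control arrays and -0.055, 0.089 and 0.011 on the silenced arrays, which overlap throughout. The difference was -3e-04 (95% interval -0.157 to 0.156, limma adjusted p = 1). All directions below therefore hold between arrays as labelled.

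The proteasome degrades proteins that carry ubiquitin chains. Its barrel-shaped core holds the proteolytic sites inside rings of beta subunits, with rings of alpha subunits as gates on both sides. A regulatory particle caps the core, with a base of ATPases that unfold the substrate and a lid that removes the ubiquitin. In cells exposed to interferon, the catalytic beta subunits PSMB5, PSMB6 and PSMB7 can be replaced by PSMB8, PSMB9 and PSMB10, which gives the immunoproteasome and favours peptides for class I antigen presentation. The transcription factor NFE2L1, also called NRF1, raises proteasome genes through antioxidant response elements when proteasome activity falls short.

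In the silenced arrays the transcripts of most proteasome genes differed little from control, and 3 genes stood past the threshold. PSMB9 was 1.32-fold lower, PSMA4, an alpha subunit of the core, was 1.24-fold lower, and PSME4, which encodes the activator PA200, was 1.23-fold higher. Of the 46 members, 1 was called higher, 2 lower and 43 were not called (limma, adjusted p under 0.05). At an unadjusted p under 0.05, 1 member was higher and 9 were lower, where 12.7% of all genes were higher and 11.9% lower. In either direction that is 21.7% of the members and 24.6% of all genes. Over all genes 13.3% were called, 7.14% higher and 6.19% lower, while 6.52% of the members were called. Of the 112 probe sets of the members 3 were called higher and 5 lower, where 5.82% and 4.85% of all probe sets were.

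The upstream sequences of the 3 called genes, and of TAP1, the neighbour that shares the upstream region of PSMB9, are shown because antioxidant response elements and interferon response elements are known in promoters of this system. They come from RefSeq (GRCh38.p14), end at the base before the start site and are written 5′ to 3′ on the strand of the gene. Capitals mark matches, on either strand, to TGACNNNGC, the core of the antioxidant response element, to CCAAT, the NF-Y box, and to TTTCNNTTTC, a pair of interferon response half-sites.
PSMB9, chr6:32853942-32854191, plus strand: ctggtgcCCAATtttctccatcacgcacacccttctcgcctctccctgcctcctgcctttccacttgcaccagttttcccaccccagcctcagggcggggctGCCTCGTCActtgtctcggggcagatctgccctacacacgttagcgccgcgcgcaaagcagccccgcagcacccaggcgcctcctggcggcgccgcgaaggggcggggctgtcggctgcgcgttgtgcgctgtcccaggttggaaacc
TAP1, chr6:32853705-32853954, minus strand: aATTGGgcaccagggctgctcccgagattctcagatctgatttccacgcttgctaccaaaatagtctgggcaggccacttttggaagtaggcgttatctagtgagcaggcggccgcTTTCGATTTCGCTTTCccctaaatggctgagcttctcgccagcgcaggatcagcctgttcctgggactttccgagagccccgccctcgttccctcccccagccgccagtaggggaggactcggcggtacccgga
PSMA4, chr15:78540155-78540404, plus strand: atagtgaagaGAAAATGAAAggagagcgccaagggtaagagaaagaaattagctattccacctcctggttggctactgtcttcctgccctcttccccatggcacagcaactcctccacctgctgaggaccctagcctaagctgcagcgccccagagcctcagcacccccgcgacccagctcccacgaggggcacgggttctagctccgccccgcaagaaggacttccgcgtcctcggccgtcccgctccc
PSME4, chr2:53970994-53971243, minus strand: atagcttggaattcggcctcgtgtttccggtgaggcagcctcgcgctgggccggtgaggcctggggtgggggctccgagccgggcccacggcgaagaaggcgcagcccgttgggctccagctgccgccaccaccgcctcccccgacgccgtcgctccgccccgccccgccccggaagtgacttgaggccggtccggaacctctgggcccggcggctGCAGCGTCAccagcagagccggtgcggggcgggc
The antioxidant core lies at -148 from the start site in PSMB9, on the reverse strand as GCCTCGTCA, and at -34 in PSME4, also reversed, as GCAGCGTCA. PSMA4 holds the core as TGACTCTGC only in the window of a later listed start, which is not shown. PSMB9 and TAP1 are transcribed away from each other, with 487 bases between their start sites. The CCAAT box in the PSMB9 sequence and the reversed one in the TAP1 sequence are the same bases. The capital run TTTCGATTTCGCTTTC of TAP1 holds 2 overlapping interferon matches, and no other matches within 1 sequence overlapped. Matches to these letters describe the sequence and do not show binding.

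RefSeq windows, which run from upstream of a start to a little past it, were matched for 38 of the 44 proteasome genes. The antioxidant core was found in 14 of these 38 genes (36.8%) and in 16.1% of the 27305 genes with a window. By windows, the shares were 31.1% of 45 and 13.3% of 35116. The median difference between silenced and control arrays was -0.09 in the 14 genes with the core, with a range of -0.405 to 0.299. It was -0.046 in the 24 genes without it, with a range of -0.168 to 0.127. The NF-Y box gave nearly the same split, with medians of -0.088 in the 18 genes with it and -0.044 in the 20 without it. Each called gene had a match to the antioxidant core, and 2 of them were lower and 1 was higher. The NF-Y box was found in 18 of 38 genes (47.4%, against 39.7% of the genes with a window, which were not limited to measured genes). The interferon pair, which was added to the search after the values were seen, was found in 7 of 38 (18.4%, against 4.4% of the genes with a window). The medians were -0.044 with it and -0.059 without it. The 7 genes with the pair were PSMB8, PSMB10, PSME1 and PSME2, all induced by interferon, and PSMA4, PSMB4 and PSMG4. PSMB9 counted as without the pair, but its window reaches only 250 bases upstream. The interferon matches of TAP1 lie in the 487 bases between both genes, outside the PSMB9 window. The split into genes with and without a match depends on this window length.

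PSMB9 encodes an interferon-inducible catalytic subunit of the immunoproteasome. Its values were -0.002, 0.249 and 0.192 on the control arrays and -0.187, -0.34 and -0.248 on the silenced arrays. All silenced arrays lay below all control arrays, and control replicate 1 lay lowest among the controls. The mean was 0.146 ± 0.132 in control and -0.258 ± 0.077 in silenced arrays (SD, n = 3). PSMB9 fell by 0.405 in log2 (SE 0.077, limma adjusted p = 0.0085). Of its 3 probe sets, 2 were called lower, with differences of -0.596 and -0.459. The remaining one had a difference of -0.159 and an exact 0 on 2 arrays, and was not called.

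The other subunits of the immunoproteasome did not pass the test. PSMB8, which replaces PSMB5, measured -0.14, -0.016 and -0.073 in control and -0.032, -0.086 and 0.08 in silenced arrays. These values overlap, and the difference was 0.063 (95% interval -0.082 to 0.209, limma adjusted p = 0.64). The 3 probe sets of PSMB8 gave 0.031, -0.115 and 0.274, none of them past the threshold, so its value is uncertain in direction. PSMB10, which replaces PSMB7, had a difference of 0.039 (95% interval -0.123 to 0.201). Control replicate 1 had the lowest control value of both genes. PSMB11, the thymus subunit, had a difference of 0.002 with the widest interval of all 44 genes, -0.284 to 0.288.

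The gap between PSMB9 and its relatives was examined within arrays. PSMB9 minus PSMB8 was 0.138, 0.265 and 0.265 on the control arrays and -0.155, -0.254 and -0.328 on the silenced arrays. The gap was lower on every silenced array, and its mean differed by -0.468. PSMB9 minus PSMB10 differed by -0.444, and PSMB9 minus PSMB6, the constitutive subunit it replaces, by -0.438. In the remaining catalytic pairs, PSMB8 minus PSMB5 differed by 0.069 and PSMB10 minus PSMB7 by 0.1. The exact permutation p, two-sided, was 0.1 for each of these gaps except PSMB10 minus PSMB7, for which it was 0.3. The gaps of PSMB9 to PSMB8, PSMB10 and TAP1 were chosen after their values were seen. Every gap with PSMB9 contains the difference of PSMB9 itself, so these gaps are not separate results. The gaps with PSMB8 also carry the unlike directions of its probe sets. With 3 arrays a group 0.1 is the smallest p possible, and the adjusted values over 6 gaps were 0.12 and 0.3.

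TAP1, which encodes a chain of the peptide transporter of antigen presentation, did not pass the test. It measured -0.114, 0.126 and 0.086 in control and 0.021, -0.187 and 0.053 in silenced arrays, and these values overlap. The difference was -0.07 (95% interval -0.267 to 0.127), and it was 0.005 without silenced replicate 2. Control replicate 1 and silenced replicate 2, each the lowest of its group here, had deviations that correlated over all genes (r of 0.373). Leaving out only 1 of these arrays therefore shifts the difference. A comparison of TAP1 by correlated arrays was not made. PSMB9 minus TAP1 was 0.112, 0.123 and 0.106 on the control arrays and -0.208, -0.153 and -0.301 on the silenced arrays. That gap differed by -0.334, with no overlap between the groups (exact permutation p = 0.1, the smallest possible). TAP2, the neighbour of PSMB8, had a difference of 0.053 (limma adjusted p = 0.71).

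**Figure D1:**
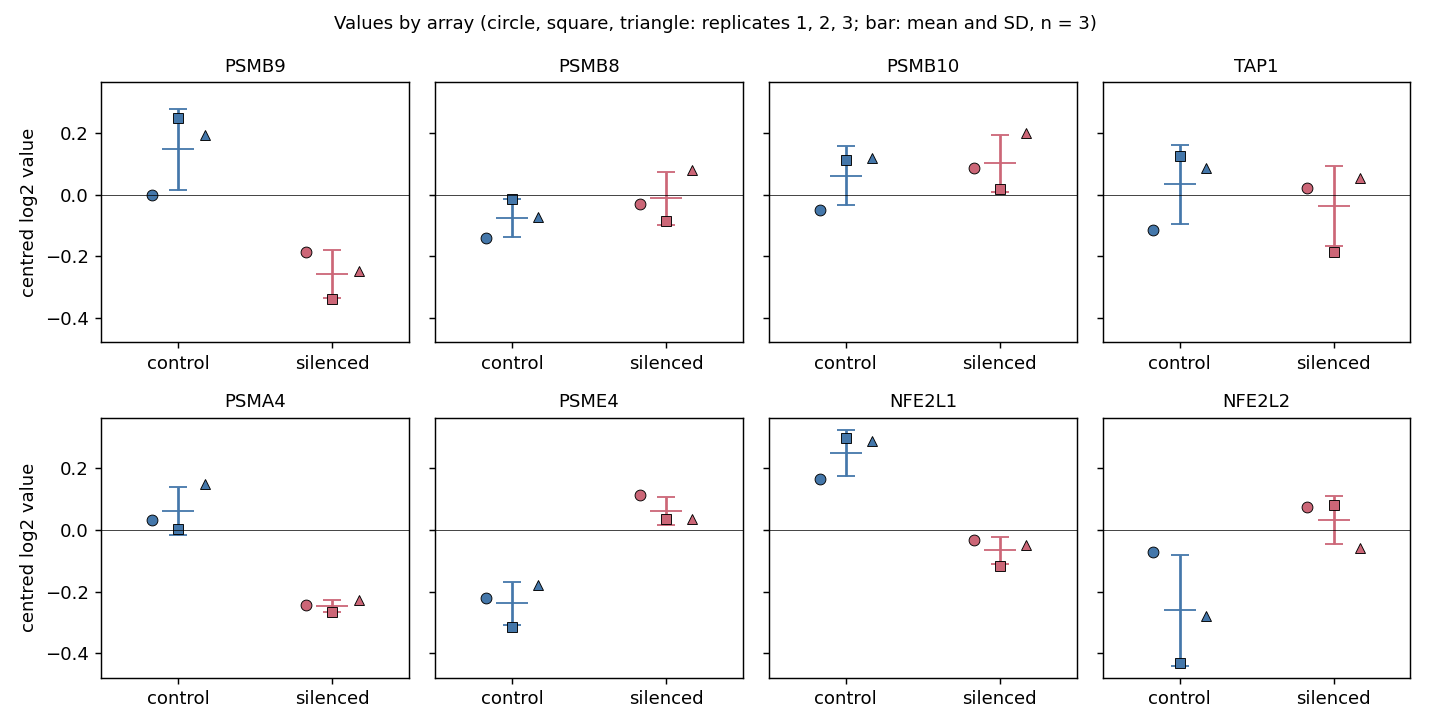
Centred log2 values of 8 genes on each array, control in blue and silenced in red, with the mean and SD of 3 arrays as bars. PSMB9, PSMA4 and NFE2L1 lie lower and PSME4 higher on all silenced arrays, while the groups overlap in PSMB8, PSMB10 and TAP1. NFE2L2 lies higher on all silenced arrays but did not pass the threshold.

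The alpha ring of the core gates the entry of substrates. Of its 8 genes 7 were measured, 1 was lower, 0 higher and 6 were not called. The differences ran from -0.308 to 0.058 with a median of -0.048, and 6 of 7 were below 0, where 52.2% of all genes were below 0 with a median of -0.006. PSMA4 measured 0.033, 0.002 and 0.149 on the control arrays and -0.243, -0.267 and -0.228 on the silenced arrays. The silenced values lay close together and below all controls. PSMA4 fell by 0.308 in log2 (SE 0.058, limma adjusted p = 0.0083). All 3 of its probe sets were called lower, with differences from -0.355 to -0.274. PSMA3, at the other end of the class, had values of 0.014, -0.09 and -0.044 in control and 0.05, 0.002 and 0.003 in silenced arrays, a difference of 0.058 that did not pass (limma adjusted p = 0.61). PSMA8, the testis form of an alpha subunit, was measured by 1 probe set that held 0 on 4 arrays and 0.064 on the other two.

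The beta ring holds the proteolytic sites. Of the 7 constitutive beta genes 0 were called, with differences from -0.155 to 0.033 and a median of -0.061. At an unadjusted p under 0.05, 1 of them was lower. That gene was PSMB2, a noncatalytic subunit, with 0.176, 0.159 and 0.142 on the control arrays and 0.004, -0.016 and 0.023 on the silenced arrays. The groups did not overlap and the spread within each was narrow, but the difference of -0.155 did not pass (SE 0.05, limma adjusted p = 0.083). It passed when probe sets that may match other transcripts were left out (-0.204, limma adjusted p = 0.037). PSMB6, the highest of the class, measured -0.01, 0.012 and 0.007 in control and 0.074, -0.011 and 0.046 in silenced arrays, which overlap. The catalytic subunits PSMB5, PSMB6 and PSMB7 had differences of -0.005, 0.033 and -0.061, with intervals of -0.142 to 0.131, -0.085 to 0.152 and -0.191 to 0.07.

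**Figure D2:**
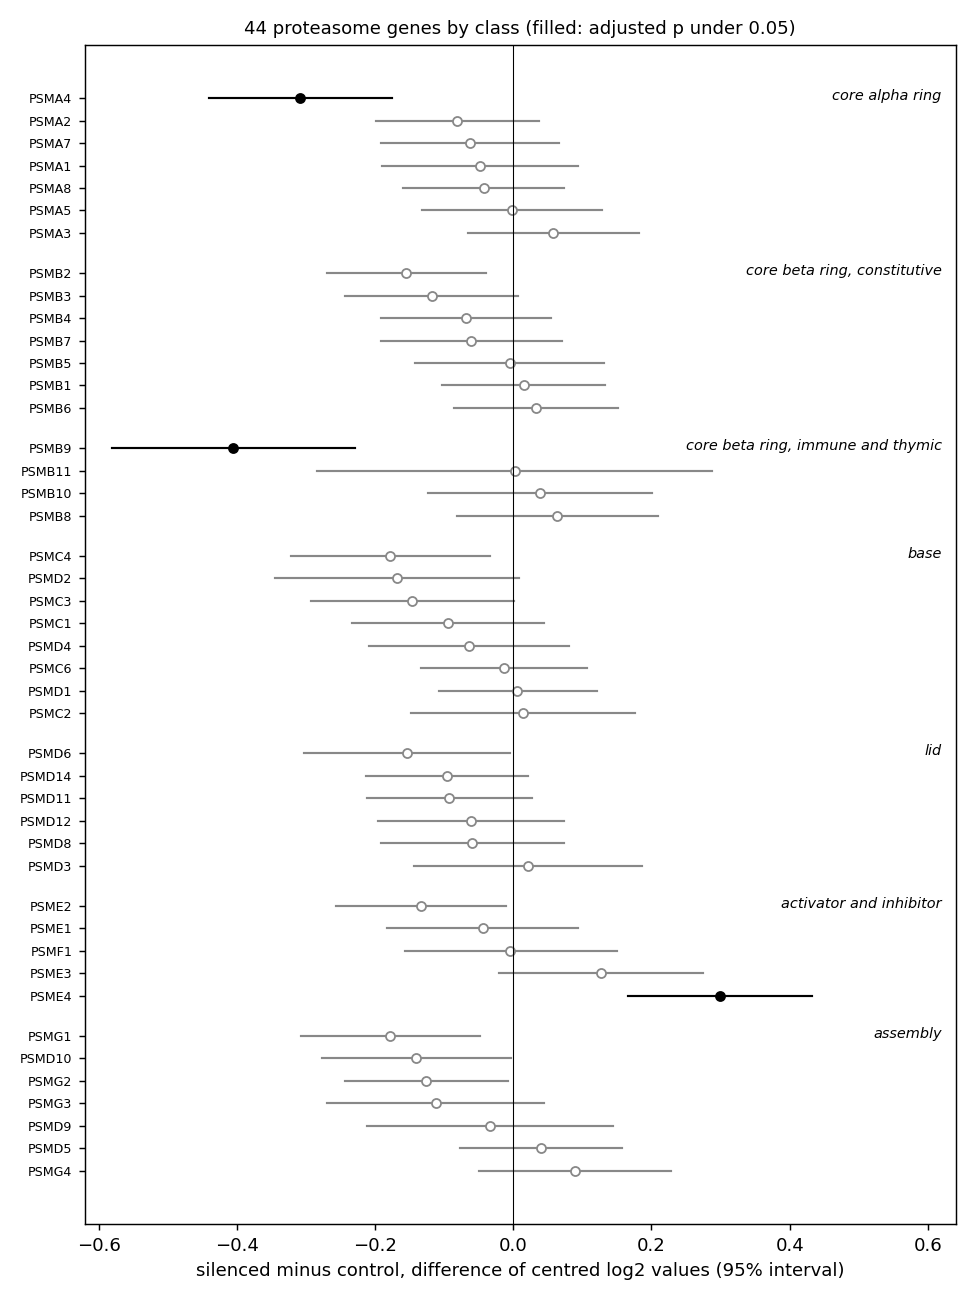
Differences, silenced minus control, of the 44 proteasome genes by class, as points with 95% intervals from limma on the log2 scale. Filled points mark PSMA4, PSMB9 and PSME4, the 3 genes past the threshold.

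The base unfolds substrates with a ring of ATPases, PSMC1 to PSMC6, beside the scaffold and ubiquitin-binding subunits PSMD1, PSMD2 and PSMD4. Of its 9 genes 8 were measured and 0 were called, with differences from -0.178 to 0.014 and a median of -0.08. At an unadjusted p under 0.05, 1 was lower. PSMC4 measured 0.049, 0.212 and 0.194 in control and 0, -0.082 and 0.004 in silenced arrays. The groups did not overlap, and the difference of -0.178 did not pass (SE 0.063, limma adjusted p = 0.11). PSMC2, the highest, measured -0.064, -0.188 and 0.04 in control and -0.018, -0.135 and -0.017 in silenced arrays. These overlap with a mean difference of 0.014, but its 3 probe sets gave -0.228, -0.203 and 0.472, none of them past the threshold, and the median over them gave -0.136. The PSMC2 value is therefore uncertain in direction.

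The lid includes PSMD14, the enzyme that cuts ubiquitin chains off the substrate. Of its 8 genes 6 were measured and 0 were called, with differences from -0.154 to 0.021 and a median of -0.077. At an unadjusted p under 0.05, 1 was lower. PSMD6 was the lowest, with 0.045, 0.14 and 0.189 in control and -0.007, -0.123 and 0.039 in silenced arrays. Its highest silenced value lay just below its lowest control value, and the difference of -0.154 did not pass (limma adjusted p = 0.19). PSMD3, the highest, measured -0.037, 0.149 and 0.104 in control and 0.163, -0.017 and 0.133 in silenced arrays. These overlap, with a difference of 0.021 (limma adjusted p = 0.91).

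The activators open the core without the regulatory particle. PSME4, whose product PA200 is known from spermatogenesis and DNA repair, measured -0.222, -0.314 and -0.178 on the control arrays. On the silenced arrays it measured 0.112, 0.036 and 0.036, all above every control. PSME4 rose by 0.299 (SE 0.059, limma adjusted p = 0.0098). Its 6 probe sets all had differences above 0, from 0.089 to 0.477, and 3 of them were called higher.

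The other activators did not pass. PSME1 and PSME2 form the interferon-inducible ring PA28, and they had differences of -0.044 and -0.134. PSME2 measured 0.073, 0.14 and 0.17 in control and 0, -0.039 and 0.021 in silenced arrays, which do not overlap (limma adjusted p = 0.17). PSME3, the nuclear PA28 gamma, had a difference of 0.127 (95% interval -0.021 to 0.275, limma adjusted p = 0.28). PSMF1, which encodes the inhibitor PI31, had a difference of -0.004 (95% interval -0.157 to 0.15). The class of 5 genes thus held 1 higher, 0 lower and 4 not called. Its median of -0.004 has no settled direction, since it was -0.066 without control replicate 1 and 0.054 with specific probe sets.

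**Figure D3:**
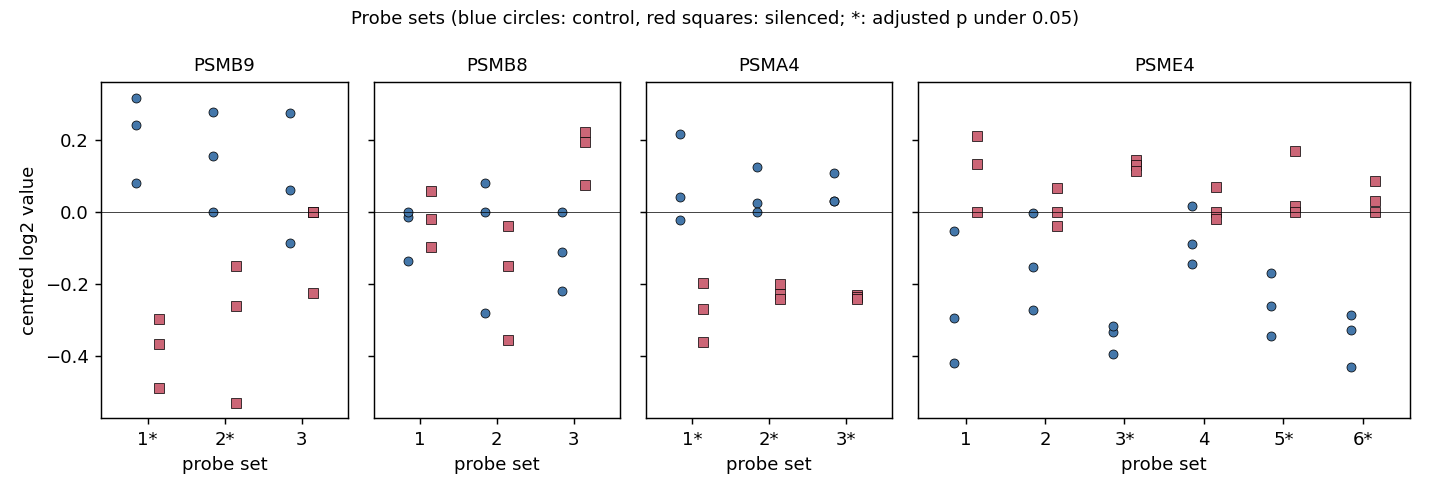
Centred log2 values of each probe set of PSMB9, PSMB8, PSMA4 and PSME4, control as blue circles and silenced as red squares, with an asterisk for an adjusted p under 0.05. All 3 probe sets of PSMA4 are lower and 3 of 6 of PSME4 are higher past the threshold, while those of PSMB8 differ in direction.

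The assembly factors build the core (PSMG1 to PSMG4) and the base (PSMD5, PSMD9 and PSMD10). All 7 were measured and 0 were called, with differences from -0.178 to 0.09 and a median of -0.112. At an unadjusted p under 0.05, 3 were lower and 0 higher (42.9%, against 24.6% of all genes in either direction and 11.9% lower). PSMG1 measured 0.109, 0.201 and 0.246 in control and -0.012, 0 and 0.034 in silenced arrays. Its partner PSMG2 measured 0.088, 0.115 and 0.164 in control and 0, -0.014 and 0.004 in silenced arrays. The groups did not overlap in either gene, and the differences of -0.178 and -0.126 did not pass (limma adjusted p = 0.08 and 0.17). PSMD10, which encodes gankyrin, an oncoprotein of hepatocellular carcinoma, had a difference of -0.14 (limma adjusted p = 0.19). PSMG3 had a difference of -0.112. Its partner PSMG4, the highest of the class, measured -0.094, 0.072 and 0.044 in control and 0.072, 0.092 and 0.127 in silenced arrays, a difference of 0.09 that did not pass (limma adjusted p = 0.44).

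Across the classes the differences leaned slightly below 0. They were below 0 in 31 of 44 genes (70.5%, against 52.2% of all genes), with a median of -0.06 against -0.006. The size of the difference had a median of 0.064, against 0.079 over all genes, and the median SE was 0.059. The groups did not overlap in 14 of the 44 (31.8%, against 29.3% of all genes), with silenced below in 13 and above in 1, where 14.4% and 15% of all genes did so. The 41 genes that were not called had 95% intervals that reached no lower than -0.345 (PSMD2) and no higher than 0.288 (PSMB11), which is 1.27-fold lower and 1.22-fold higher. Of the 44 genes 19 lay among the 25% of all genes with the lowest SD over the 6 arrays (43.2%).

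The size of the lean to lower values moved with single arrays, while its direction stayed. Between 28 and 33 of the 44 genes were below 0 whichever array was left out. The median over the 44 genes was 0.001 on control replicate 1, against 0.094 and 0.086 on control replicates 2 and 3. On the silenced arrays it was 0.002, -0.017 and 0.024. On this median alone control replicate 1 lay near the silenced arrays, and it held the lowest control value in 31 of 44 genes. Over all genes, arrays of unlike label correlated with r of -0.31 to 0.032, and arrays of the same label with 0.451 to 0.717. Silenced replicate 2 held the lowest silenced value in 30. The deviations of control replicate 1 and silenced replicate 2 from their group means correlated over all genes (r of 0.373). Without control replicate 1, 4 members were lower instead of 2, the added ones being PSMC4 (-0.229, limma adjusted p = 0.042) and PSMG1 (-0.216, limma adjusted p = 0.043), and the median was -0.084. Without each other array in turn, the same 3 genes were called and the median lay between -0.071 and -0.048. The part of control replicate 1 in the uncalled differences was not tested further, and neither was that of the correlated arrays.

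**Figure D4:**
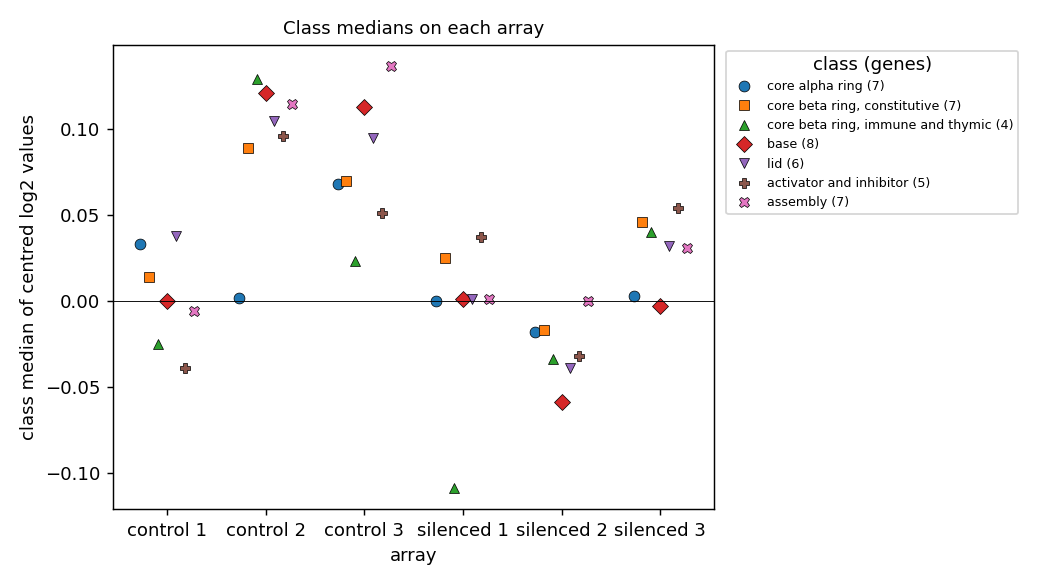
Median of the centred log2 values of each proteasome class on each of the 6 arrays. On control replicates 2 and 3 all 7 classes lie above 0, and on control replicate 1 they lie between -0.039 and 0.038.

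NFE2L1, the activator of proteasome genes, was lower in the silenced arrays. It measured 0.164, 0.299 and 0.288 in control and -0.034, -0.117 and -0.048 in silenced arrays, without overlap. NFE2L1 fell by 0.317 in log2 (SE 0.06, limma adjusted p = 0.008). The call did not hold when the most variable probe set stood for the gene (-0.356, limma adjusted p = 0.086). NFE2L2, the related factor NRF2, had values of -0.072, -0.43 and -0.28 in control and 0.073, 0.081 and -0.059 in silenced arrays. These do not overlap, although control replicate 1 lay just below the lowest silenced array, and the difference of 0.293 did not pass (limma adjusted p = 0.071). It did pass without control replicate 1 (0.387, limma adjusted p = 0.016) and when the 25% of genes with the lowest SD were left out (0.293, limma adjusted p = 0.038). NFYB, a subunit of the NF-Y factor, rose by 0.301 (SE 0.061, limma adjusted p = 0.012), a call lost with the median of its probe sets (0.247, limma adjusted p = 0.1). The regulators of proteasome genes, 14 of them measured, held 1 higher, 1 lower and 12 not called, with a median of 0.024. Over all genes 7.14% were higher and 6.19% lower.

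Among 11 measured partners of the proteasome whose symbols fall outside the rule, 1 was higher, 2 were lower and 8 were not called. Their median was -0.044, and 7.14% of all genes were higher and 6.19% lower. ECPAS, which tethers the regulatory particle to the core, fell by 0.319 in log2 (SE 0.07, limma adjusted p = 0.016). USP14, a deubiquitinase bound to the base, fell by 0.202 (SE 0.055, limma adjusted p = 0.043). AKIRIN2, which imports proteasomes into the nucleus, rose by 0.207 (SE 0.051, limma adjusted p = 0.028). POMP, the maturation factor of the core, had a difference of -0.036 (limma adjusted p = 0.77), which was 0.04 with the most variable probe set. The calls of USP14 and AKIRIN2 were lost whichever of the 6 arrays was left out, with differences of -0.227 to -0.168 and 0.19 to 0.217. With the replicate block they were lost too (limma adjusted p = 0.098 and 0.088), at the same differences. AKIRIN2 was 0.455 with the more variable of its 2 probe sets (limma adjusted p = 0.0063). Since their mean was 0.207, the other probe set had a difference of the opposite sign. The call of ECPAS was lost without control replicate 3 (-0.287) or silenced replicate 2 (-0.261).

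None of the 12 measured genes of ubiquitin, its E1 enzymes and shuttle factors was called (0 higher and 0 lower by limma), with differences from -0.172 to 0.23 and a median of 0.025. Of 14 measured genes of class I antigen processing, 0 were higher, 2 lower and 12 not called, with a median of -0.042. HLA-C and HLA-B, which present peptides on the cell surface, had differences of -0.325 (limma adjusted p = 0.019) and -0.289 (limma adjusted p = 0.008). Both belong to a family of near-identical genes and are uncertain. HLA-B had a difference of 0.051 when probe sets that may match other transcripts were left out, and HLA-C lost its call with the median of its probe sets (-0.227) and without control replicate 2 (-0.294) or silenced replicate 1 (-0.284) or 2 (-0.291). Over all 4 lists 2 genes were higher and 5 lower of 51, where 7.14% of all genes were higher and 6.19% lower. The lists thus held calls at about the share of all genes (13.3%). The count of higher genes was 1 without control replicate 2 or 3 or any silenced replicate. Leaving out control replicate 2, control replicate 3 or silenced replicate 1 left 3 lower genes, and leaving out silenced replicate 2 left 2. The share called over all genes also fell, to between 9.05% and 12.6%, when 1 array was left out.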

How the data were processed

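Human Huh7 cells were measured on 6 1-colour arrays. The authors used RMA, per the submitters' processing notes, in a version not given in the sources used here. Its deposited output is log2 values centred near 0 for each probe set. The log base is that of RMA's usual output, and the centring was read from the values. Centring cancels in a difference between groups. An exact 0 occurred on at least 1 array in 80.6% of probe sets, which can narrow the spread.

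Of 49395 probe sets 102 controls were left out, and 44988 of the others carried 1 symbol in the platform annotation. A gene's value is the mean of its probe sets. Silenced and control arrays were compared over all 18132 genes with limma 3.58.1 in R 4.3.3 (lmFit, eBayes, no block), with Benjamini-Hochberg adjustment and a threshold of 0.05. Gaps between 2 genes were tested by exact permutation of the arrays. The script was tested on simulated data. Precision is limited by 3 arrays a group.

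Members and lists were chosen with earlier results of these data known. Genes named with values are KCNN4, called members, the extremes of each class, up to 3 called genes per list, NFE2L1, NFE2L2 and POMP. Catalytic partners, partners within the assembly and activator rings, PSMF1, PSMD10, PSMB11, PSMA8, TAP1 and TAP2 were added after their values were seen. Alternatives changed the probe sets, the gene value, the filter, the normalization, the moderation, the block and the arrays used. Replicate numbers did not pair the arrays, since deviations of same-numbered arrays from their group means correlated with r of -0.096, -0.069 and -0.04. Some arrays with unlike numbers did correlate. These were control 3 with silenced 1 (r of 0.381), control 1 with silenced 2 (0.373) and control 2 with silenced 3 (0.381). The remaining combinations had r of -0.379 to -0.249. The replicate block went by number, and a block by the correlated arrays was not tested.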

Additional observations from a re-analysis of the deposited data

How the results depend on the processing

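PSMA4, PSMB9 and PSME4 kept their direction and their call under all 14 alternatives. The differences of PSMA4, PSMB9 and PSME4 lay between -0.355 and -0.264, between -0.596 and -0.353, and between 0.261 and 0.477. With the replicate block the same 3 members were called (1 higher, 2 lower), and 1 companion gene was higher instead of 2 and 4 were lower instead of 5, the lost calls being AKIRIN2 and USP14. The low-SD filter also ended both calls (limma adjusted p = 0.073 and 0.088). Leaving out the 25% of genes with the lowest SD kept 25 of the 44 proteasome genes and moved their median from -0.06 to -0.112. This filter tends to remove genes with differences near 0, so the move says nothing about the lean itself.

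The count of companion genes called higher was 4 with the most variable probe set and 1 with the median of probe sets, and that called lower was 2 with specific probe sets. Over all genes 12.8%, 12.4% and 11.8% were called in these settings, in either direction. Leaving out 1 array gave 1 to 2 higher and 2 to 5 lower companion genes, 2 to 4 lower members, 736 to 1167 lower genes over the whole table (1123 in the full fit), and KCNN4 differences of -0.045 to 0.055. KCNN4 was 0.021 with the most variable probe set and 0.002 after quantile normalization once more, on the other side of 0 and not called. With specific probe sets KCNN4 and HLA-C had no value.

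The median of the activator and inhibitor class ran from -0.066 without control replicate 1 to 0.062 with the low-SD filter. The assembly median was not always the lowest of the classes, since the base was at -0.146 with specific probe sets and the lid at -0.122 with the most variable probe set, both against -0.112.

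Other values that crossed 0 were not called either. With the most variable probe set these were PSMB5 (0.025), PSMD3 (-0.001), PSMG4 (-0.038) and POMP (0.04). With the median of probe sets they were PSMB5 (0.009), PSMC2 (-0.136) and PSMF1 (0.037), and after quantile normalization once more PSMB5 (0.002), PSMC2 (-0.004) and PSMF1 (0.001). With specific probe sets PSMB5 (0.018) and HLA-B (0.051) crossed 0. Without 1 array PSMB5 lay between -0.045 and 0.02, PSMC2 between -0.045 and 0.069, PSMD3 between -0.033 and 0.076, PSMF1 between -0.066 and 0.039, PSMB10 between -0.016 and 0.081, and TAP1 between -0.143 and 0.005. Where no cause is given, the cause was not tested. Signal over background is unknown, since the centred values hold no level.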

Other observations

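Probe sets of 1 gene did not always move alike. The differences had unlike signs within 10 of the 33 members with several probe sets, which were PSMA1, PSMB1, PSMB5, PSMB8, PSMC2, PSMD1, PSMD3, PSMD9, PSMF1 and PSMG4. In PSMB8 the differences were 0.031, -0.115 and 0.274, and the highest of these came from a probe set on which all silenced arrays lay above all control arrays (limma adjusted p = 0.064).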
